A study of Mus musculus with 12 samples.

Results

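Genes that carry arsenic into a cell, methylate it and carry it out were examined in tumors grown from the pancreatic cancer lines AsPC-1 and BxPC-3. The 9 genes were taken by Ensembl identifier, with no threshold on a measured value. They are the aquaporins AQP3 and AQP9, the methyltransferase AS3MT, and the ABC transporters ABCC1, ABCC2, ABCC3, ABCC4, ABCB1 and ABCG2. All 9 were found among the 30832 genes listed in either deposited table. The AsPC-1 table listed 8 of them and not AQP9, and the BxPC-3 table listed 8 and not ABCB1. A gene that is not listed has no value here, and the genes listed in a table were above 0 in at least 4 of its 6 libraries.

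Both lines are established human pancreatic ductal adenocarcinoma lines, and the labels give the cells as wild type. The cells were grafted orthotopically in mice, and the tumors were sequenced as whole tissue. The groups were AsPC-1 tumors under arsenic trioxide (ATO, 3 libraries), AsPC-1 control tumors (3), BxPC-3 tumors under ATO (3) and BxPC-3 control tumors (3 labelled, 2 used). By its title, the series is about a glutathione transferase and how this cancer withstands ATO. All identifiers in the tables are human Ensembl ones, and the sources used here do not say how reads of the host mouse were handled. The labels do not give the dose and schedule of ATO, what control mice received, the strain, age or number of mice, or whether libraries came from separate animals. The p-values therefore measure the spread between these libraries.

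Arsenite enters cells as an uncharged molecule through aquaglyceroporins, the channels that also pass glycerol. In the cell it can be bound by glutathione, or methylated by arsenite methyltransferase with S-adenosylmethionine as the methyl donor. The multidrug resistance proteins of the ABCC family pump glutathione conjugates out of the cell, and arsenic triglutathione is a known cargo of ABCC1 and ABCC2. ABCB1 and ABCG2 are further drug efflux pumps.

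Values are FPKM, reads of a gene divided by its length and scaled by a constant of the library. The reads behind them, recovered from the steps of the values, summed to between 11219576 and 19306887 in the 11 libraries used. The library labelled BxPC-3 control 3 was left out because it had the profile of AsPC-1. Its r on log2(FPKM + 1) was 0.946 to 0.973 with the AsPC-1 libraries and 0.691 to 0.722 with the other BxPC-3 libraries, as a description over 16745 genes, each no replicate of another. The sums of FPKM differed between groups, at 546108 to 643255 in AsPC-1 ATO, 319005 to 373455 in AsPC-1 control, 234795 to 297964 in BxPC-3 ATO and 274198 to 364389 in BxPC-3 control libraries. The sources used here do not say how that constant was set, and the 2 tables may have been scaled separately, so differences between the lines are also given on scales set jointly over the 11 libraries.

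The lines differed in the levels of several of these genes, as in 60.0% of all tested genes in ATO tumors and 45.3% in control tumors. AQP3 was among the most abundant genes of BxPC-3 tumors and close to the detection limit in AsPC-1 tumors, ABCC1 and ABCC4 were also lower in AsPC-1, and ABCC2, ABCC3 and ABCG2 were higher in AsPC-1. AQP9, AS3MT and ABCB1 had at most 14 reads in any library. With ATO no gene of the set passed the test in either line.

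**Figure D1:**
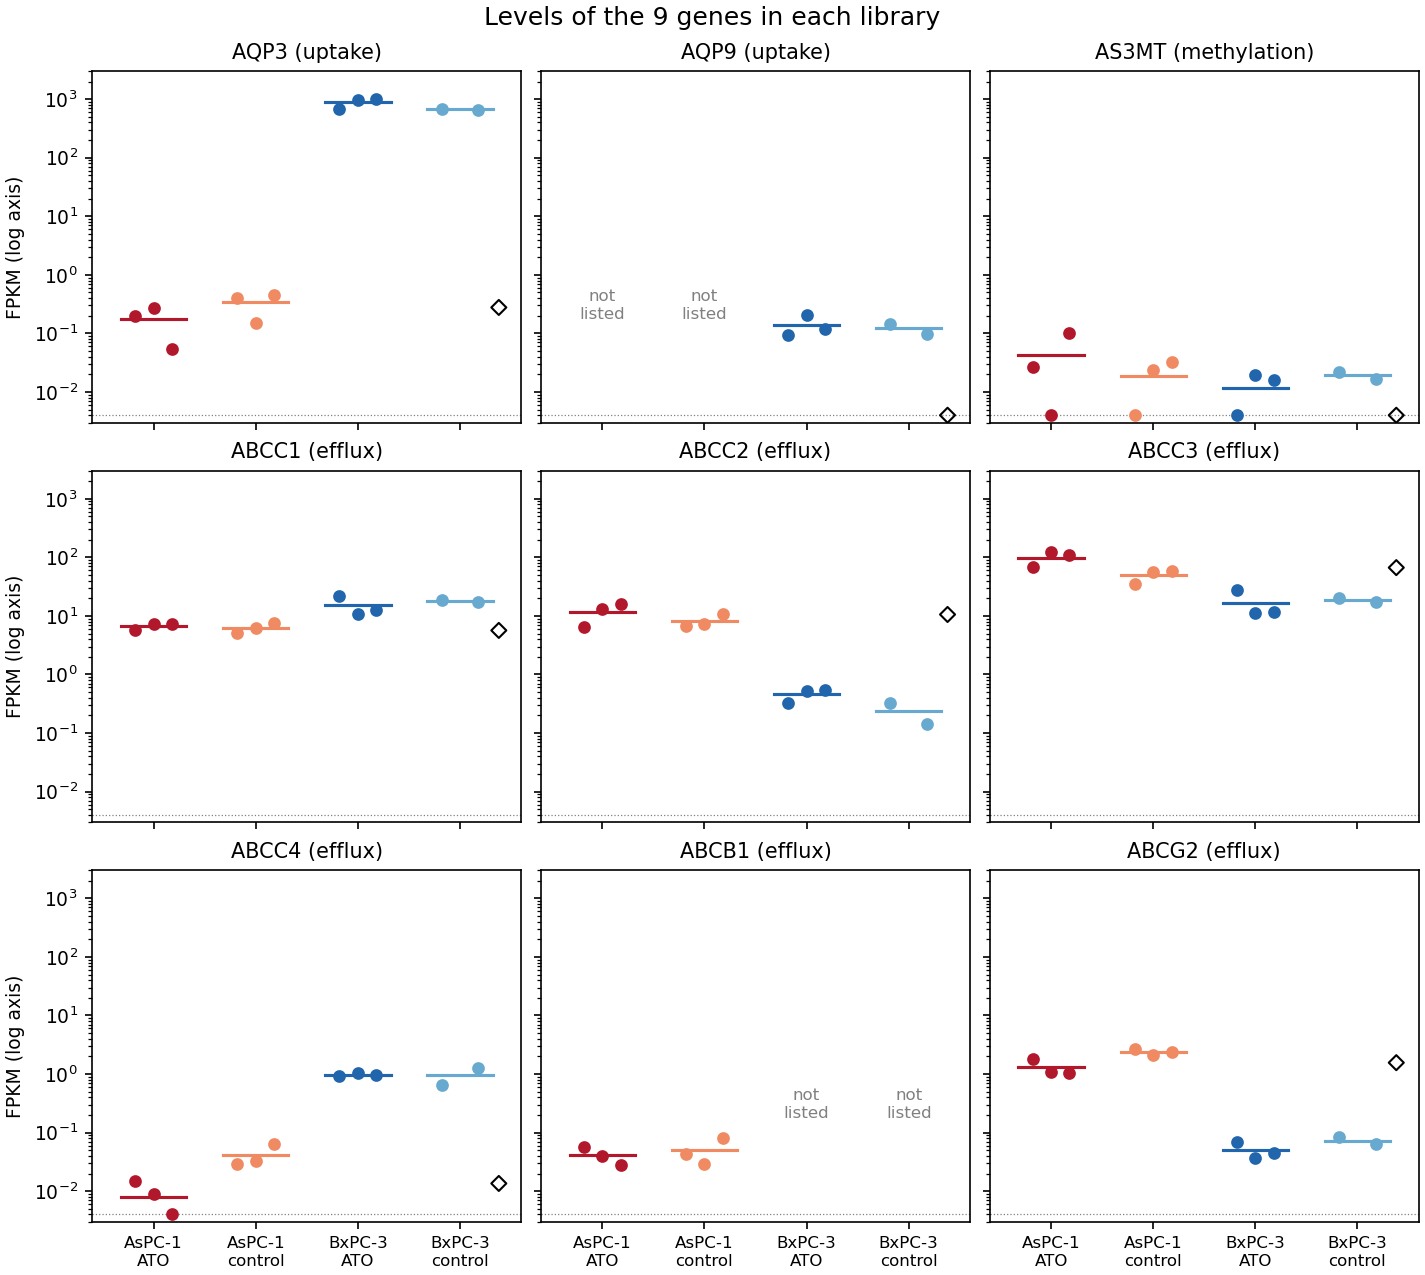
FPKM of the 9 genes in each library on a log axis, with 1 point per library and a bar at the group mean. Points on the dotted line are libraries listed at 0, and the open diamond is the library labelled BxPC-3 control 3, which enters no mean. AQP3 lies between 659 and 1008 FPKM in BxPC-3 tumors and under 1 FPKM in AsPC-1 tumors.

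AQP3 (ENSG00000165272) is an aquaglyceroporin of epithelial basolateral membranes that passes water, glycerol and arsenite. Its level was 0.198, 0.266 and 0.0544 FPKM in AsPC-1 ATO tumors and 0.404, 0.152 and 0.455 FPKM in AsPC-1 control tumors. It was 678, 984 and 1008 FPKM in BxPC-3 ATO tumors and 685 and 659 FPKM in BxPC-3 control tumors. No AsPC-1 library came near any of the 5 BxPC-3 libraries, whether treated or not.

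In reads, AQP3 had 2 to 10 in AsPC-1 ATO libraries and 8 to 19 in AsPC-1 control libraries, against 46187 to 77650 in BxPC-3 ATO libraries and 38526 and 48947 in BxPC-3 control libraries. By FPKM it ranked between 17 and 24 of the 27457 genes listed in the 5 BxPC-3 libraries, where it took 0.239% to 0.409% of the recovered reads. In AsPC-1 libraries it ranked between 17261 and 24004 of 26820 genes. AQP3 was thus near the top of the list in 1 line and among the lower genes in the other. The mean level was 5143-fold lower in AsPC-1 than in BxPC-3 tumors under ATO and 1995-fold lower in control tumors.

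The test of the line difference was limma on log2(FPKM + 1), fitted to the 11 libraries and the 16600 genes listed in both tables with at least 1 FPKM in 3 or more libraries. The log2 fold change of AQP3 was -9.55 (SE 0.17, limma adjusted p = 7.96e-11) in ATO tumors and -8.98 (SE 0.19, limma adjusted p = 3.92e-10) in control tumors. This scale understates the change of a gene that is low in 1 group. By size of change, AQP3 was number 1 of the 16600 genes in ATO tumors and number 2 in control tumors. With voom on the recovered reads, scaled jointly over the 11 libraries, it was number 4 in ATO tumors and number 9 in control tumors. AQP3 passed the filter through the BxPC-3 libraries alone, where it is high, so it had to differ, and its p-values add no support. In bulk tissue, fewer cells that carry a transcript and less of it per cell cannot be told apart.

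AQP9 (ENSG00000103569), an aquaglyceroporin best known from liver and leukocytes, was listed in the BxPC-3 table alone. It had 0.0937, 0.204 and 0.118 FPKM in BxPC-3 ATO tumors and 0.146 and 0.0983 FPKM in BxPC-3 control tumors, or 7 to 14 reads under ATO and 8 and 9 reads in control. The groups overlapped, and the exact permutation p was 1 (two-sided, n = 3 and 2). The library labelled BxPC-3 control 3 had 0 reads.

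AS3MT (ENSG00000214435), the enzyme that methylates arsenite, was at or near 0 in every library. It had 1, 0 and 3 reads in AsPC-1 ATO tumors and 0, 1 and 1 in AsPC-1 control tumors, and 0, 1 and 1 in BxPC-3 ATO tumors and 1 and 1 in BxPC-3 control tumors. Over all libraries this came to 6 reads in 6 AsPC-1 libraries and 4 reads in 5 BxPC-3 libraries, a ratio per recovered read of 1.54 with an exact 95% interval of 0.365 to 7.41. The mean log2(FPKM + 1) differed by 0.022 (two-sided exact permutation p = 0.455, n = 6 and 5). A difference between lines or with ATO was not detectable at this depth. Intervals on reads cover counting error only. The human AS3MT locus also has a readthrough transcript with its neighbor, and how reads of overlapping genes were assigned is not given in the sources used here.

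Among the efflux genes, ABCC1 (ENSG00000103222), or MRP1, is a basolateral pump for glutathione conjugates found in most tissues. It had 5.81, 7.29 and 7.14 FPKM in AsPC-1 ATO tumors and 5.12, 6.25 and 7.62 FPKM in AsPC-1 control tumors. In BxPC-3 it had 22.2, 10.9 and 12.8 FPKM in ATO tumors and 18.6 and 17.4 FPKM in control tumors. Every AsPC-1 library was below every BxPC-3 library. Set against BxPC-3, AsPC-1 stood at a log2 fold change of -1.01 (SE 0.23, limma adjusted p = 0.00311) in ATO tumors and -1.39 (SE 0.26, limma adjusted p = 0.00131) in control tumors.

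ABCC2 (ENSG00000023839), or MRP2, is the apical pump that exports conjugates into bile and urine. It had 6.56, 13.1 and 16.0 FPKM in AsPC-1 ATO tumors and 6.67, 7.37 and 10.8 FPKM in AsPC-1 control tumors. In BxPC-3 it had 0.320, 0.523 and 0.553 FPKM in ATO tumors and 0.328 and 0.140 FPKM in control tumors. The lines did not overlap, and the mean was 25.6-fold higher in AsPC-1 than in BxPC-3 tumors under ATO and 35.4-fold higher in control tumors. Per recovered read the ratio was 16.5 in ATO tumors and 33.3 in control tumors. The control fold rests on few BxPC-3 libraries and was 59.1 without BxPC-3 control replicate 1, an alternative added after the data were seen. On log2(FPKM + 1) the difference came to 3.06 (SE 0.28, limma adjusted p = 5.57e-06) in ATO tumors and 2.89 (SE 0.31, limma adjusted p = 2.94e-05) in control tumors. ABCC2 passed the filter through the AsPC-1 libraries alone, so it had to differ, and these p-values add no support.

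ABCC3 (ENSG00000108846), or MRP3, a basolateral pump for bile salts and glucuronide conjugates, was the most abundant transporter of the set in AsPC-1 tumors. It had 68.1, 121 and 108 FPKM in AsPC-1 ATO tumors and 35.5, 56.7 and 57.9 FPKM in AsPC-1 control tumors. In BxPC-3 it had 27.3, 11.01 and 11.7 FPKM in ATO tumors and 20.3 and 17.2 FPKM in control tumors. Again the lines did not overlap. Between the lines this gave a log2 fold change of 2.58 (SE 0.34, limma adjusted p = 8.51e-05) in ATO tumors and 1.34 (SE 0.38, limma adjusted p = 0.0143) in control tumors. The control value did not pass without BxPC-3 control replicate 1 (log2 fold change 1.46, limma adjusted p = 0.0506) or without BxPC-3 control replicate 2 (1.23, limma adjusted p = 0.0901), where 1 BxPC-3 control library is left and is assumed to vary like the other groups.

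ABCG2 (ENSG00000118777), or BCRP, an apical pump for many drugs, had 1.79, 1.09 and 1.05 FPKM in AsPC-1 ATO tumors and 2.64, 2.13 and 2.37 FPKM in AsPC-1 control tumors. In BxPC-3 it had 0.0687, 0.0374 and 0.0456 FPKM in ATO tumors and 0.0832 and 0.0630 FPKM in control tumors, from 4 to 8 reads a library. No library of 1 line reached those of the other, and the mean was 25.9-fold higher in AsPC-1 than in BxPC-3 tumors under ATO and 32.5-fold higher in control tumors. On log2(FPKM + 1) it differed by 1.12 (SE 0.15, limma adjusted p = 8.19e-05) in ATO tumors and by 1.65 (SE 0.16, limma adjusted p = 1.77e-05) in control tumors. ABCG2 passed the filter through the AsPC-1 libraries alone, so it had to differ, and these p-values add no support.

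ABCC4 (ENSG00000125257), or MRP4, exports cyclic nucleotides and some glutathione conjugates, and it was low in both lines. It had 2, 1 and 0 reads in AsPC-1 ATO tumors and 4, 5 and 7 reads in AsPC-1 control tumors, against 188, 188 and 214 reads in BxPC-3 ATO tumors and 108 and 272 reads in BxPC-3 control tumors. In FPKM it lay at 0 to 0.0641 in the AsPC-1 libraries and at 0.656 to 1.25 in the BxPC-3 libraries, with no overlap. It was below the filter of the main test. The mean log2(FPKM + 1) was 0.93 lower in AsPC-1 (difference -0.93, two-sided exact permutation p = 0.00433, n = 6 and 5, the smallest p that 462 splits allow). With no filter it passed in ATO tumors (log2 fold change -0.97, limma adjusted p = 2.71e-05) and in control tumors (-0.89, limma adjusted p = 0.000157). At such low values log2(FPKM + 1) understates the change. The mean FPKM was 121-fold lower in AsPC-1 than in BxPC-3 tumors under ATO and 22.8-fold lower in control tumors. These folds rest on few AsPC-1 reads. With voom the log2 fold change of ABCC4 was -6.73 in ATO tumors and -4.48 in control tumors.

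ABCB1 (ENSG00000085563), the P-glycoprotein pump, was listed in the AsPC-1 table alone. It had 5, 3 and 2 reads in AsPC-1 ATO tumors and 4, 3 and 6 reads in AsPC-1 control tumors, or 0.0277 to 0.0817 FPKM. These groups overlapped (two-sided exact permutation p = 0.6, n = 3 each), and at this depth a change with ATO was not detectable.

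In all, 7 of the 9 genes had values in both lines and 5 of them were tested between lines. All 5 passed in ATO tumors, against 60.0% of the 16600 genes tested, and all 5 passed in control tumors, against 45.3%. In both, 3 were higher in AsPC-1 (ABCC2, ABCC3 and ABCG2) and 2 were lower (AQP3 and ABCC1). Higher calls made up 35.2% of tested genes in ATO tumors and 23.5% in control tumors, and lower calls 24.8% in ATO tumors and 21.8% in control tumors. The libraries of the 2 lines did not overlap in any of the 5, against 63.6% of tested genes in ATO tumors and 66.5% in control tumors. AQP3, ABCC2 and ABCG2 were under 1 FPKM in 1 line and passed the filter through the other, so they had to differ, and no reading is made of the counts. All 5 kept their direction and passed with quantile normalization, after rescaling to TPM and with voom on the recovered reads. The median over all genes after TPM was -0.80 in ATO tumors and -0.10 in control tumors. In that order of scales, 10131 of 16600, 13348 of 20133 and 10942 of 17331 genes passed in ATO tumors. In control tumors 7793 of 16600, 8011 of 20133 and 8792 of 17331 passed. Each of these fits had a filter on low values, so no reading is made of these counts either. With the library labelled BxPC-3 control 3 kept in its group, 5 of the 5 passed in ATO tumors, as did 8618 of 16745 genes, and 0 in control tumors, as did 0 of 16745 genes (4960 at an unadjusted p under 0.05). AQP3 in control tumors then had a log2 fold change of -5.97 (limma adjusted p = 0.11).

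The differences between lines kept their direction on these scales, and their size moved. With voom on the recovered reads, which adds no FPKM pseudocount, ABCG2 had a log2 fold change of 4.36 in ATO tumors and 4.93 in control tumors, and ABCC2 of 4.41 in ATO tumors and 5.23 in control tumors. AQP3 was at -12.64 in ATO tumors and -11.15 in control tumors by the same fit. ABCC1 was at -1.33 in ATO tumors and -1.55 in control tumors, and ABCC3 at 2.45 in ATO tumors and 1.37 in control tumors. After rescaling to TPM in ATO tumors, ABCC1 was at -2.25 and ABCC3 at 1.42, with the median of all genes at -0.80. Per recovered read, ABCC3 was 3.92-fold higher in AsPC-1 in ATO tumors and 2.46-fold higher in control tumors.

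**Figure D2:**
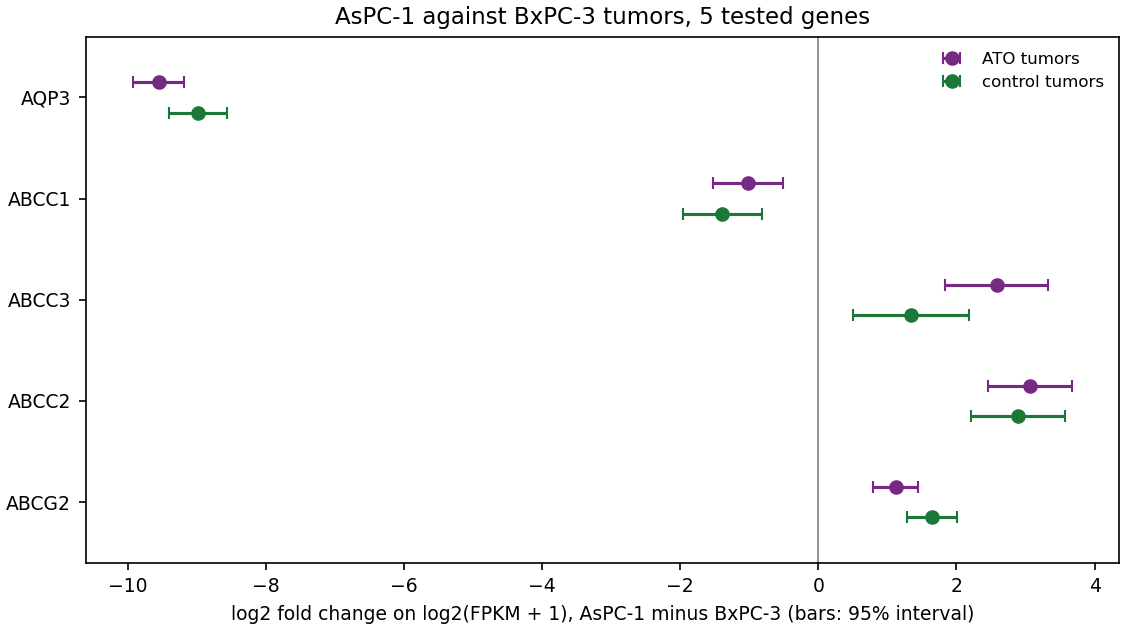
Log2 fold change on log2(FPKM + 1), AsPC-1 minus BxPC-3, for the 5 genes tested between lines, in ATO tumors (upper point) and control tumors (lower point), with 95% intervals from limma. AQP3 stands at -9.55 and -8.98, ABCC1 also lies left of 0, and ABCC3, ABCC2 and ABCG2 lie right of 0.

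The change with ATO was then tested within each line, over 15287 genes in AsPC-1 and 14633 in BxPC-3. ABCC3 was higher and ABCG2 lower in all 3 AsPC-1 ATO libraries than in the control libraries, neither past the threshold, while the tested genes of BxPC-3 overlapped. In AsPC-1 tumors 4 of the genes were tested and 0 passed an adjusted p of 0.05 in limma, against 0% of all tested genes. At an unadjusted p under 0.05 there were 2 of the 4, ABCC3 and ABCG2, against 21.0% of all tested genes. With voom on the recovered reads 0 of the 4 passed, and 19 of 15726 genes. The median log2 fold change of the 4 was 0.25, beside 0.12 over all tested genes.

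ABCC3 had 99.2 ± 27.6 FPKM in AsPC-1 ATO tumors and 50.1 ± 12.6 FPKM in AsPC-1 control tumors (SD, n = 3 each). All 3 ATO libraries lay above all 3 control libraries. This was a log2 fold change of 0.96 (SE 0.28, limma unadjusted p = 0.00821, adjusted p = 0.18), and 0.78 with voom on the recovered reads (limma adjusted p = 0.126). It did not pass, though it ranked 592 of 15287 genes by size of change.

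ABCG2 had 1.31 ± 0.418 FPKM in AsPC-1 ATO tumors and 2.38 ± 0.253 FPKM in AsPC-1 control tumors (SD, n = 3 each). All 3 ATO libraries lay below all 3 control libraries, with 66 to 139 reads against 151 to 212. This was a log2 fold change of -0.56 (SE 0.19, limma unadjusted p = 0.0183, adjusted p = 0.204), and -1.08 with voom on the recovered reads (limma adjusted p = 0.124). Groups that did not overlap were thus found in 2 of the 4 tested genes, against 25.5% of all tested genes (17.4% higher and 8.10% lower in ATO).

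For ABCC1 and ABCC2 the AsPC-1 groups overlapped. Their log2 fold changes were 0.089 (SE 0.18, 95% interval -0.32 to 0.50, limma adjusted p = 0.777) and 0.42 (SE 0.31, 95% interval -0.30 to 1.14, limma adjusted p = 0.432). ABCC2 was at 13.1 and 16.0 FPKM in ATO replicates 2 and 3 and at 6.56 FPKM in ATO replicate 1, below each AsPC-1 control library, and without that replicate its log2 fold change was 0.76 (limma adjusted p = 0.0852).

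These values moved with the scaling. The median log2 fold change of all tested AsPC-1 genes was 0.12 on the deposited scale, -0.021 with quantile normalization, -0.041 with voom and -0.49 after rescaling each library to TPM. After rescaling to TPM the log2 fold change of ABCC3 was 0.19 (limma adjusted p = 0.553), against 0.96 on the deposited scale. On the same rescaled values ABCG2 and ABCC1 passed as lower in ATO (log2 fold changes -1.31 and -0.64, limma adjusted p = 0.0167 and 0.0221), among 6893 lower and 120 higher calls of 18617 genes. Relative to the median of all tested genes, ABCC3 stood 0.84 higher on the deposited scale and 0.68 to 1.11 higher on the other 3 scales. On the same measure ABCG2 stood at -0.68 on the deposited scale and at -0.74 to -1.04 on the others, ABCC2 at 0.30 and 0.18 to 0.37, and ABCC1 at -0.034 and -0.029 to -0.15.

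The AsPC-1 genes below the filter had few reads. AQP3 had 21 reads over the 3 ATO libraries and 44 over the 3 control libraries, and its groups overlapped (two-sided exact permutation p = 0.3, n = 3 each). ABCC4 had 3 reads over the ATO libraries and 16 over the control libraries, a ratio per recovered read of 0.169 with an exact 95% interval of 0.0315 to 0.589. This interval covers counting error and not the spread between libraries. The groups of ABCC4 did not overlap (two-sided exact permutation p = 0.1, n = 3 each, the smallest that 3 against 3 libraries allow). Among the genes above the filter 25.5% did not overlap.

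**Figure D3:**
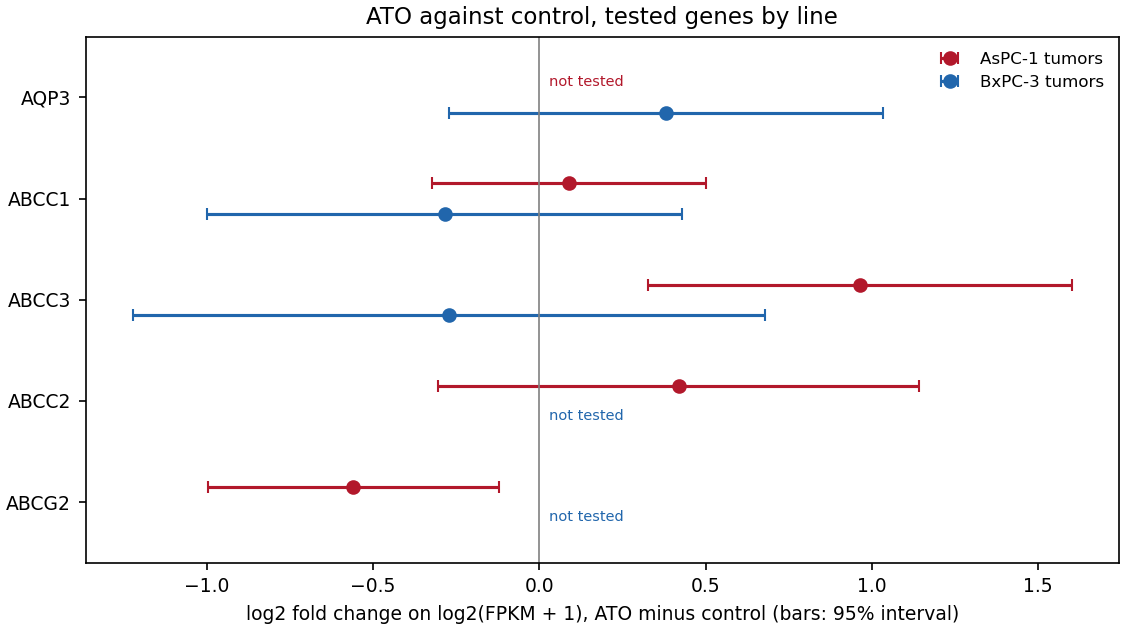
Log2 fold change on log2(FPKM + 1), ATO minus control, for each gene tested in AsPC-1 tumors (upper point) or BxPC-3 tumors (lower point), with 95% intervals from limma. Genes below the filter in a line are marked as not tested. The intervals of ABCC3 and ABCG2 in AsPC-1 tumors do not include 0, and neither gene passed after adjustment over all genes.

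In BxPC-3 tumors 3 of the genes were tested, and 0 passed an adjusted p of 0.05 in limma, against 0% of all tested genes. At an unadjusted p under 0.05 there were 0 of the 3, against 5.18% of all tested genes, and with voom 0 of 5 passed. AQP3 had 890 ± 184 FPKM in BxPC-3 ATO tumors (SD, n = 3) and 672 ± 18.4 FPKM in BxPC-3 control tumors (SD, n = 2), with a log2 fold change of 0.38 (SE 0.27, 95% interval -0.27 to 1.03, limma adjusted p = 0.883). ABCC1 had a log2 fold change of -0.28 (SE 0.29, 95% interval -0.998 to 0.43, limma adjusted p = 0.898). For ABCC3 it was -0.27 (SE 0.39, 95% interval -1.22 to 0.68, limma adjusted p = 0.91). The ATO and control libraries overlapped in each of the 3, against 21.6% of tested genes with no overlap.

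BxPC-3 ATO replicate 1 differed from ATO replicates 2 and 3 in these genes. It had the lowest AQP3 of the 3 and the highest ABCC1 and ABCC3, and it lay on the other side of the control libraries for ABCC1 and ABCC3. Without it, the log2 fold changes were 0.57 for AQP3 (limma adjusted p = 0.183), -0.57 for ABCC1 (limma adjusted p = 0.103) and -0.67 for ABCC3 (limma adjusted p = 0.0953). None of the 3 passed with or without it.

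Among the BxPC-3 genes below the filter, ABCC2 had 46 to 90 reads in ATO libraries and 22 and 39 reads in control libraries, with a difference in mean log2(FPKM + 1) of 0.25 (two-sided exact permutation p = 0.4, n = 3 and 2). With a pseudocount of 0.1 this difference was 0.79, with the same exact permutation p, and with voom it was 1.07 (limma adjusted p = 0.857). Per recovered read the ratio was 2.26, with an exact 95% interval of 1.69 to 3.06 that covers counting error and not the spread between libraries. ABCC4 averaged 0.973 FPKM in ATO tumors and 0.954 FPKM in control tumors. ABCG2 had 4 to 8 reads in ATO libraries and 8 reads in each control library. In FPKM the ATO and control libraries overlapped in each of the 3 genes, and 3 against 2 libraries cannot give a two-sided permutation p under 0.2. As a share of recovered reads ABCC2 did not overlap, at 0.000251% or more in ATO libraries and 0.000242% or less in control libraries.

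The response to ATO was compared between the lines with the line by treatment term of the model over 11 libraries. It passed in 0 of the 5 genes and in 0% of 16600 genes in limma. At an unadjusted p under 0.05 there were 3 of the 5, ABCC3, ABCG2 and AQP3, against 15.5% of all tested genes, and with voom 0 of 6 passed. The term is the signed change in AsPC-1 minus the signed change in BxPC-3. It was 1.24 for ABCC3 (SE 0.51, limma unadjusted p = 0.034, adjusted p = 0.297). It was -0.53 for ABCG2 (SE 0.22, limma unadjusted p = 0.0358, adjusted p = 0.298) and -0.57 for AQP3 (SE 0.25, limma unadjusted p = 0.0485, adjusted p = 0.319). ABCG2 was near 0 in BxPC-3 and AQP3 near 0 in AsPC-1, where this scale leaves little room for a change. With a pseudocount of 0.1 the limma unadjusted p was 0.177 for ABCG2, 0.0751 for AQP3 and 0.0374 for ABCC3. With voom the limma unadjusted p was 0.451 for ABCG2, 0.0676 for AQP3 and 0.0169 for ABCC3. After rescaling to TPM, 2 of 6 passed, AQP3 and ABCG2 (limma adjusted p = 0.0326 and 0.0222), as did 6931 of 20133 genes, 6820 of them negative, with a median term over all tested genes of -0.73.

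A ratio of 2 genes within a library does not depend on the library constant. The ratio of ABCC3 to ABCC1 was 11.7, 16.6 and 15.2 in AsPC-1 ATO tumors and 6.94, 9.08 and 7.61 in AsPC-1 control tumors. It was 1.23, 1.01 and 0.918 in BxPC-3 ATO tumors and 1.09 and 0.986 in BxPC-3 control tumors. ABCC3 was thus many times ABCC1 in each AsPC-1 tumor, and they were close in each BxPC-3 tumor. The ratio averaged 11.2 ± 4.02 in AsPC-1 (SD, n = 6) and 1.05 ± 0.121 in BxPC-3 (SD, n = 5), and the exact permutation p was 0.00433 (two-sided), the smallest for 6 against 5 libraries.

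Within AsPC-1 the ratio was 14.5 ± 2.51 in ATO tumors and 7.88 ± 1.10 in control tumors (SD, n = 3 each), with no overlap (two-sided exact permutation p = 0.1, the smallest for 3 against 3 libraries). Within BxPC-3 it was 1.05 ± 0.162 in ATO tumors (SD, n = 3) and 1.04 ± 0.076 in control tumors (SD, n = 2), and these overlapped (two-sided exact permutation p = 1). In BxPC-3 ATO replicate 1, which was high in both genes, the ratio of 1.23 was the highest of the line. A ratio does not show which of its 2 genes differs.

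**Figure D4:**
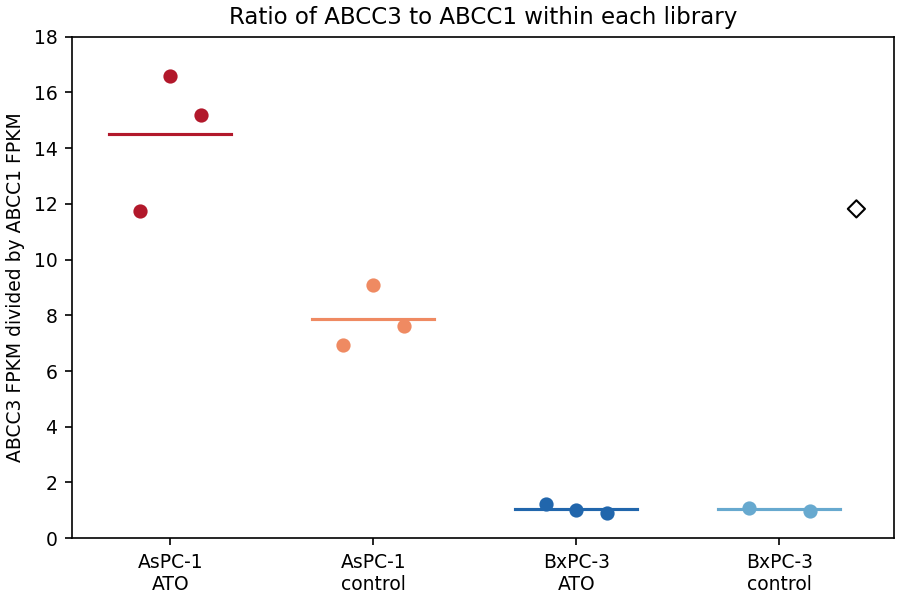
ABCC3 FPKM divided by ABCC1 FPKM in each library, with 1 point per library and a bar at the group mean. The open diamond is the library labelled BxPC-3 control 3, at 11.8. The AsPC-1 ATO libraries lie at 11.7 to 16.6, the AsPC-1 control libraries at 6.94 to 9.08, and the 5 BxPC-3 libraries at 0.918 to 1.23.

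The ratio of ABCC1 to ABCC2 also separated the lines. It was 0.448 to 0.886 in AsPC-1 ATO tumors and 0.704 to 0.848 in AsPC-1 control tumors, against 20.8 to 69.3 in BxPC-3 ATO tumors and 56.5 and 124 in BxPC-3 control tumors. ABCC2 was thus above ABCC1 per length in every AsPC-1 library and far below it in every BxPC-3 library. The ratio of ABCC3 to ABCC2 averaged 8.80 ± 1.83 in AsPC-1 ATO tumors and 6.13 ± 1.36 in AsPC-1 control tumors (SD, n = 3 each), and these overlapped (two-sided exact permutation p = 0.2). It was 21.1 to 85.5 in BxPC-3 ATO tumors and 61.8 and 122 in BxPC-3 control tumors, above every AsPC-1 library.

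By mean FPKM the order in AsPC-1 ATO tumors was ABCC3, ABCC2, ABCC1, ABCG2 and AQP3, with AS3MT, ABCB1 and ABCC4 at the low end, and AsPC-1 control tumors had ABCC3, ABCC2, ABCC1 and ABCG2 in the same places. ABCC2 and ABCC1 were neighbors whose libraries overlapped in both groups. In BxPC-3 ATO tumors the order was AQP3, ABCC3, ABCC1, ABCC4, ABCC2, AQP9, ABCG2 and AS3MT, and it was the same in control tumors. ABCC3 and ABCC1 overlapped there in both groups. AQP3, first in BxPC-3, stood far above the next gene in each of the 5 libraries.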

How the data were processed

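Whole-tumor RNA was measured in 12 libraries of 2 lines. The authors deposited 1 table of FPKM values per line, with no header that names an aligner or counter. Genome builds GRCm38, mm10 and hg38 are named per the submitters' processing notes, with no role given. Of the identifiers, 0 matched a mouse name table, so symbols for the 9 genes came from the list that chose them. All 9 were named, and no other gene is named by symbol. The 9 genes, the other lists and the tests were chosen with earlier results of these data known. Lists of other pathway genes and of cell type markers were not analysed here, because no human name table was at hand, so the labelled tissue was not checked against markers and the part of host or other cells was not tested.

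Gene lengths and whole reads were recovered from the steps of the deposited FPKM values. In each library 99.9% of genes came out within 0.05 of a whole read. In 1 cell a stray space was removed. Genes that reached 1 FPKM in 3 libraries of a fit were tested with limma 3.58.1 (R 4.3.3; lmFit, eBayes with trend) on log2(FPKM + 1), two-sided, with Benjamini-Hochberg adjustment over all tested genes and a threshold of 0.05. Each line was fitted alone for ATO, and 1 model over 11 libraries gave the line contrasts and the line by treatment term. Genes under the filter had an exact permutation test (scipy 1.17.1, Python 3.11.15). Ratios of counts have exact 95% intervals. The fits were tested on simulated data. Alternatives were a pseudocount of 0.1, no filter, quantile normalization, rescaling to TPM, limma-voom on those reads, scaled by median ratios (at least 1 CPM in 3 libraries), a replicate block, BxPC-3 control 3 kept, and each library left out.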

Additional observations from a re-analysis of the deposited data

Results flagged for a closer look

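The library labelled BxPC-3 control 3, which was left out of the main comparisons, held levels of 3 efflux genes above all 5 other BxPC-3 libraries. ABCC2 was at 10.6 FPKM there, against at most 0.553 FPKM in the others. ABCC3 was at 66.8 FPKM, against at most 27.3 FPKM. ABCG2 was at 1.56 FPKM, against at most 0.0832 FPKM. In the same library AQP3 was at 0.277 FPKM, where the others were at 659 FPKM or more, ABCC1 was at 5.65 FPKM, where they were at 10.9 FPKM or more, and ABCC4 had 2 reads, where they had 108 or more. Its ratio of ABCC3 to ABCC1 was 11.8, against at most 1.23 in the others. How the library came by this profile was not tested.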

How the results depend on the processing

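Of 410 alternative values, 379 kept their direction and side of the threshold, or for a count stayed within 1.5 times, and 16 turned their sign, none of them past the threshold on the deposited scale. In AsPC-1 tumors with ATO, 2 genes passed after rescaling to TPM and 1 (ABCC3, log2 fold change 0.96, limma adjusted p = 0.0336) with a replicate block, as did 1193 of 15287 genes. Same-numbered libraries were not taken as paired, since their deviations correlated at 0.331, 0.200 and 0.0814 in AsPC-1 and 0.146 and 0.0591 in BxPC-3. The line by treatment term passed in 2 genes after rescaling to TPM. Between the lines in control tumors 0 genes passed with BxPC-3 control 3 kept, and 4 to 5 when each library was left out. ABCC1 with ATO in AsPC-1 was -0.050 with quantile normalization, -0.64 after TPM, -0.092 with voom and -0.035 to 0.21 with a library left out. ABCC2 with ATO in AsPC-1 was -0.31 after TPM. In BxPC-3 with ATO, ABCC1 was 0.22 with control 3 kept and ABCC3 was 0.0032 after TPM. The line by treatment term of ABCC1 was -0.64 after TPM and -0.13 with control 3 kept. That of ABCC2 was -0.34 with a pseudocount of 0.1, -0.015 with quantile normalization, -1.05 after TPM, -0.82 with voom and -0.067 to 0.52 with a library left out. The cause was not tested. Leaving out each library, chosen as an alternative after the data were seen, put the log2 difference in the ABCC3 to ABCC1 ratio with ATO at 0.77 to 1.02 in AsPC-1 and -0.11 to 0.10 in BxPC-3. Depth limits AQP9, AS3MT and ABCB1, AQP3 and ABCC4 within AsPC-1, and ABCG2 within BxPC-3, each at under 20 reads a library.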

Other observations

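The pattern of AQP3 over the 11 libraries was shared by many genes. Of 16600 genes tested, 258 had r of at least 0.99 with it on log2(FPKM + 1), and 8.18% had at least 0.95, as a description over libraries that fall into 2 lines. The gene most like it was ENSG00000184292 (r = 0.9995), at 0 to 0.202 FPKM in AsPC-1 libraries and 269 to 340 FPKM in BxPC-3 libraries. For ABCC3 the most like gene was ENSG00000072135 (r = 0.997), at 20.6 to 53.3 FPKM in AsPC-1 libraries and 7.24 to 14.1 FPKM in BxPC-3 libraries. For ABCC2 it was ENSG00000215533 (r = 0.997), at 1.15 to 1.99 FPKM in AsPC-1 libraries and 0 to 0.130 FPKM in BxPC-3 libraries. ABCC1 had fewer close matches, with 2 genes at r of at least 0.99, led by ENSG00000188917 (r = 0.993). The files used here pair none of these identifiers with a name.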
